A study of Mus musculus with 2 samples.

Results

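A set of imprinted genes known for activity in muscle or its precursors was described in cultured mouse myotubes: the RNAs H19, Meg3 and Rian and the protein-coding genes Cdkn1c, Plagl1, Grb10, Ndn, Mest, Peg3 and Dlk1. They were chosen by name, and every array probe that carries a member's gene name on both arrays was taken, which gave 26 probes for 10 genes among 37305 genes with a value. C2C12 is a mouse myoblast line, and per the labels' protocols it was switched to low horse serum and used as myotubes. The treated culture was given 4 µg of exosomes, which are small vesicles released by cells, from a KPC line for 24 h (KPC-exo). That line came from a pancreatic tumour of mice carrying KrasLSL-G12D/+ and Trp53LSL-R172H/+ with Pdx1-Cre, a Cre recombinase driven by the promoter of a pancreatic gene. The control was a culture kept for 24 h with exosomes from a murine line of pancreatic duct epithelium (MPDC-exo), whose dose the sources used here do not state. C2C12 is an established line, and no culture without exosomes was analysed here. There was 1 array per group, so every value below compares 2 arrays without a replicate check, and no test or p-value is given.

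An imprinted gene is transcribed mainly from the allele inherited from the mother or mainly from the one inherited from the father, under the control of a methylated imprinting control region that a whole cluster of neighbouring genes often shares. Several imprinted genes are abundant in fetal tissues and fall after birth, among them a set that restrains or promotes growth in muscle. The arrays measured total RNA of each gene and do not separate the parental alleles.

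Of the 10 genes, 6 were measured, which means that on both arrays the gene's brightest probe was well above background: H19, Cdkn1c, Plagl1, Ndn, Mest and Peg3. Among all genes with a value, 45.5% were measured. Dlk1, Rian and Grb10 were not well above background at any probe on either array, and Meg3 was well above background at 1 of its 5 probes, with KPC-exo only. Of the 37305 genes with a value, 1277 were well above background with KPC-exo only and 616 with MPDC-exo only. None of the 6 measured genes was 1.5-fold or more apart between the arrays, against 7.43% of the 16989 measured genes, and none was 2-fold or more apart, against 1.92%. Differences are log2 levels with KPC-exo minus those with MPDC-exo, each level being relative to its own array's 75th percentile of signal. They ran from -0.17 for H19 to 0.40 for Cdkn1c, with 5 of 6 above 0 and a median of 0.23. Over all measured genes the median was 0.06, 58.8% lay above 0, and the central 95% of differences spanned -0.73 to 0.68, so each of the 6 lay within the usual range between these arrays.

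**Figure D1:**
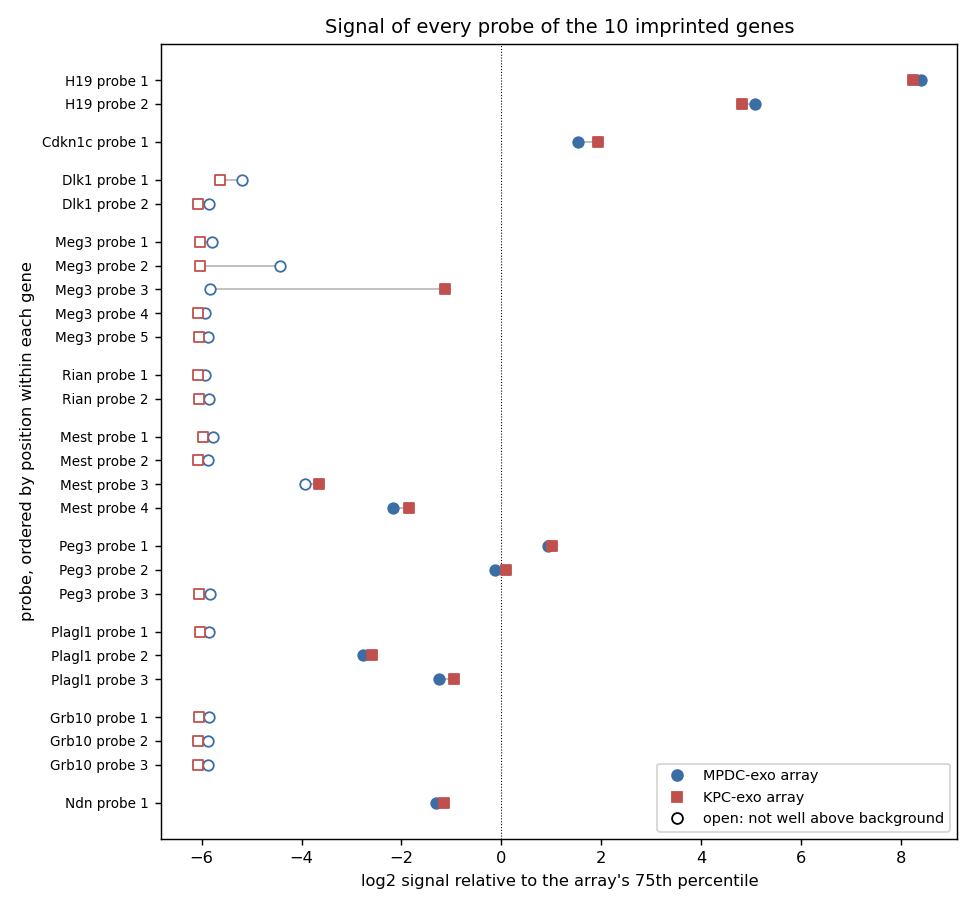
Log2 signal of all 26 probes of the 10 imprinted genes, relative to each array's 75th percentile (dotted line at 0), with circles for the MPDC-exo array and squares for the KPC-exo array. Open symbols were not well above background, and levels of different probes are not comparable. The paired symbols lie close together at the 9 measured probes, while the filled square of the third Meg3 probe stands alone at -1.12.

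The arrays differed in overall brightness, with a 75th percentile of 380 units of signal with MPDC-exo and 639 with KPC-exo. A gene with the same share of the signal on both arrays therefore read 1.68-fold brighter with KPC-exo, and the signals below have to be read against that ratio. The cells had the markers of the labelled type, with 12 of 12 myotube markers measured and a median difference of -0.11. Mylpf, a fast myosin light chain, read 65679 and 130453 units (0.24), with -0.17 at its other measured probe. Ckm, the muscle creatine kinase, differed most at -0.44. The summed signal of the myotube markers was 264395 units with MPDC-exo and 449217 with KPC-exo. All 8 markers of proliferating cells were also measured, with a median difference of -0.30, a lowest value of -0.45 for Birc5, a mitotic protein, and a value of 0.42 for Pcna, the replication clamp. Of 7 fibroblast markers 6 were measured (summed signal 219716 and 346657 units, median difference 0.06), from -0.29 for Col3a1, a fibrillar collagen, with the collagen gene Col1a2 at -0.06. The 3 measured probes of Col3a1 ran from -0.46 to 0.81 and the 3 of Col1a2 from -0.06 to 0.71, so both signs depended on the probe. Of 9 markers of ductal epithelium, the cell type of the control exosomes' source, 2 were measured, Sox9 at -0.16 and Krt19 at 0.13, with a summed signal of 563 and 873 units, while Krt8, Krt18, Krt7, Epcam, Cdh1, Muc1 and Cldn4 were not well above background. The part of undifferentiated or fibroblast-like cells in the levels of the imprinted genes was not tested, and fewer cells of a type cannot be told apart from less RNA per cell.

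H19 is a maternally expressed long noncoding RNA of embryonic and regenerating muscle that shares its control region with Igf2. It was read by 2 probes on the minus strand (mm9 positions), shown here because both were far above background and had the same sign.
H19 probe 1, chr7:149761492-149761551: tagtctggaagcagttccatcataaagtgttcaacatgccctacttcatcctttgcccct
H19 probe 2, chr7:149762173-149762232: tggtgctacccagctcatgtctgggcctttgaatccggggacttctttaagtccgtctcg
Neither sequence shares a run of 20 bases with any other probe on the array.

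The first H19 probe read 129296 units with MPDC-exo and 193432 with KPC-exo, and the second read 12875 and 18083. Both gains fell short of the 1.68-fold gain of the whole array. The relative levels of the first probe were 8.41 and 8.24, a log2 difference of -0.17 or 1.12-fold lower with KPC-exo. At the second probe the levels were 5.08 and 4.82, a difference of -0.26 or 1.20-fold lower. The scanner software gives an error for each spot, and combined over both arrays it was 0.20 for each H19 probe, which is larger than the first difference and smaller than the second. That error describes the reading of the array and not variation between cultures. The direction of H19 also depended on how the arrays were scaled: the first probe's difference was 0.03 with quantile normalization, 0.09 in the authors' series value table and 0.83 when centred on spike-in controls.

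RefSeq places a microRNA gene, Mir675, within H19, and microRNA genes also lie within Meg3 (2), Rian (3) and Mest (1). The array held 0 probes for the mature microRNAs of these hosts, so only the host transcripts were read.

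Meg3 and Rian are maternally expressed long noncoding RNAs of the Dlk1-Dio3 cluster on chromosome 12, where Dlk1 is expressed from the paternal allele. Of the 5 Meg3 probes, 4 were on neither array well above background, with signals of 6.22 to 17.6 units (MPDC-exo) and 9.41 to 9.76 units (KPC-exo). The remaining probe, the third along the gene, read 6.63 units with MPDC-exo and 294 with KPC-exo. Its sequence is set beside that of probe 4 because the files place both on the same transcript and only the third gave signal (plus strand, mm9).
Meg3 probe 3, chr12:110799833-110799892: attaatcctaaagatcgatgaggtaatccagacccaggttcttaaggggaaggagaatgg
Meg3 probe 4, chr12:110806386-110806445: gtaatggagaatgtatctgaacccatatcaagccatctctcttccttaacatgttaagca
Neither shares a run of 20 bases with another array probe, and they lie at bases 4444 and 10997 of the transcript.

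The third Meg3 probe had relative levels of -5.84 and -1.12. Since it was not well above background with MPDC-exo, only a bound can be given, against the lowest signal that counted as well above background there, and the KPC-exo level was at least 5.61-fold higher. With normexp background correction the bound was 2.87-fold, and with centring on spike-in probes 11.2-fold. Among the 30584 probes not well above background with MPDC-exo, 1.76% had a bound of at least 1.5-fold and 0.101%, or 31 probes, had one at least this large. Meg3 probe 4, on the same transcript, read 6.22 and 9.41 units and did not share the signal. With KPC-exo the spot of the third probe had a median pixel of 327 over a local background of 43, carried no outlier flag and was covered by 45 pixels. Its pixels were uneven, with an SD of 0.48 of the median, against a median of 0.15 over 2018 spots within 20% of its median pixel, of which 99.2% were more even. With MPDC-exo the same spot had a median pixel of 40 over a background of 39. The value rests on 1 spot per array, and the part of the uneven spot in it was not tested.

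Rian was not well above background at either probe, with 6.21 and 6.55 units with MPDC-exo and 9.42 and 9.61 with KPC-exo. Its first probe spans a splice junction, since its 60 bases cover positions 110865343 to 110872442 of chromosome 12 (mm9). A further probe of the design, which the files give no gene name, lies across the start of that stretch, at chr12:110865304-110865363 on the plus strand. The pair is shown with the 21 bases they share in capitals, because only the probe that is contiguous in the genome gave signal.
Rian probe 1: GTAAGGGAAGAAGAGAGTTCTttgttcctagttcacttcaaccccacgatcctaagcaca
Unnamed overlapping probe: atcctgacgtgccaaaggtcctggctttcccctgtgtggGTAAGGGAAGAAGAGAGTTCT
Rian probe 2: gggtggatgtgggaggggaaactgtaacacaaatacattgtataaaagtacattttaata
The unnamed probe read 70.2 units with MPDC-exo and 54.7 with KPC-exo, relative levels of -2.44 and -3.54. The difference of -1.11, or 2.16-fold lower with KPC-exo, had a spot error of 0.35, and 1.52% of the 24962 measured probes were lower by 2-fold or more. The files give the unnamed probe no gene name, so its value was not counted for Rian, whose own probes gave none. It lies on the same strand as Rian probe 1 and overlaps it, and whether it reads Rian RNA was not tested.

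**Figure D2:**
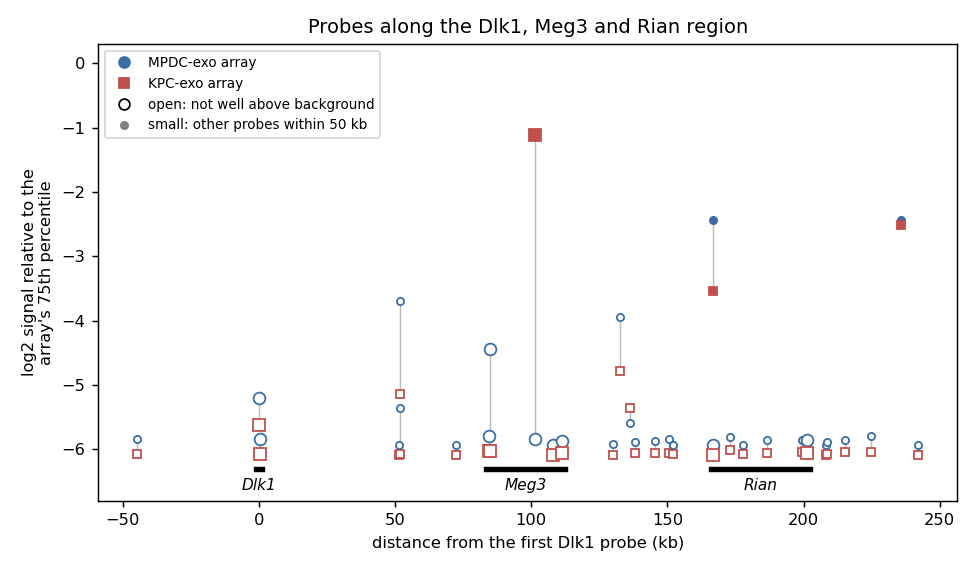
Log2 signal of probes along the Dlk1, Meg3 and Rian region against distance from the first Dlk1 probe in kb, with large symbols for probes of the 3 genes, small symbols for other probes within 50 kb, and filled symbols for those well above background. The third Meg3 probe is filled with KPC-exo only, and 2 other probes, both near Rian, are filled on both arrays.

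The other genes of this cluster gave little signal. Dlk1, a transmembrane protein with EGF repeats that is related to the Notch ligands and marks embryonic muscle, read 10.3 and 6.60 units at its 2 probes with MPDC-exo and 12.9 and 9.53 with KPC-exo, and neither probe was well above background. Of the 7 listed genes of the cluster, 0 were measured: Rtl1, a retrotransposon-derived gene, the noncoding RNA Mirg and the deiodinase gene Dio3 were not well above background, and Begain was well above background with KPC-exo only, at least 1.74-fold higher (26.0 and 91.1 units). Around Meg3, 0 of 11 other probes within 50 kb were measured. Around Rian, 2 of 18 were, the unnamed probe above and a cDNA clone, which read 70.2 and 112 units (-0.07).

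Cdkn1c encodes an inhibitor of cyclin-dependent kinases that takes part in the exit of myoblasts from the cell cycle, and is expressed from the maternal allele. Its only probe (chr7:150644297-150644356, mm9) read 1098 units with MPDC-exo and 2427 with KPC-exo. The relative levels were 1.53 and 1.93, a difference of 0.40 or 1.32-fold higher with KPC-exo. This was the largest difference among the 6 measured genes and exceeded its spot error of 0.20, and it rests on 1 probe. Measured genes were split by signal into 4 classes of equal size. Among the 4247 genes of its class, 2.68% were 1.5-fold or more apart and the central 95% spanned -0.48 to 0.50, so Cdkn1c lay inside that range. Under 11 alternative ways of processing that left out the spike-in scaling it stayed between 0.31 and 0.43. Other filters on dim probes and the mean over probes could not move it, since it has 1 probe.

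Plagl1, a paternally expressed zinc finger transcription factor that regulates other imprinted genes, had 2 measured probes of 3. At the brighter (chr10:12850832-12850891) the signals were 160 and 330 units and the relative levels -1.25 and -0.95, a difference of 0.29 or 1.22-fold higher with KPC-exo. At the other (chr10:12848421-12848480) they were 55.7 and 105 units, -2.77 and -2.60, a difference of 0.17. The spot errors were 0.22 and 0.31, so the second difference was within its error. Both probes pointed the same way. With normexp background correction the difference of Plagl1 was 0.12.

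Grb10, an adaptor that restrains signalling from the insulin and IGF receptors and is maternally expressed in most tissues, had 3 probes and none was well above background. They read 6.47 to 6.54 units with MPDC-exo and 9.46 to 9.54 with KPC-exo. No level of Grb10 can be given in either culture.

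Ndn, a paternally expressed MAGE-family protein of the Prader-Willi region that has a role in muscle differentiation, had 1 probe (chr7:69494749-69494808). It read 154 units with MPDC-exo and 290 with KPC-exo, relative levels of -1.30 and -1.14. The difference of 0.16, or 1.12-fold higher with KPC-exo, was within the spot error of 0.22. With normexp background correction it was 0.06.

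Mest encodes a protein of the alpha/beta hydrolase fold and is expressed from the paternal allele in mesoderm. Of its 4 probes, 1 was measured (chr6:30697385-30697444), with 84.9 units with MPDC-exo and 178 with KPC-exo. The relative levels were -2.16 and -1.84, a difference of 0.32 or 1.25-fold higher with KPC-exo, with a spot error of 0.24. With normexp background correction the difference was 0.04. A second probe (chr6:30692160-30692219) was well above background with KPC-exo only, with 24.8 and 50.5 units, and its bound gave no fold above 1. The last 2 probes read 6.91 and 6.49 units with MPDC-exo and 10.1 and 9.49 with KPC-exo.

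Peg3 is a large paternally expressed zinc finger protein found in muscle stem cells. Its brightest probe (chr7:6657078-6657137) read 724 and 1287 units, relative levels of 0.93 and 1.01, a difference of 0.08. The second (chr7:6658774-6658833) read 349 and 679 units, -0.12 and 0.09, a difference of 0.21 or 1.16-fold higher with KPC-exo. The spot errors were 0.20 and 0.21. The brightest probe's spot with MPDC-exo carried a flag for its local background, and with such spots left out Peg3 was read by its second probe and stood at 0.25. With cyclic loess the difference was -0.01, so the sign of the first probe is not settled.

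**Figure D3:**
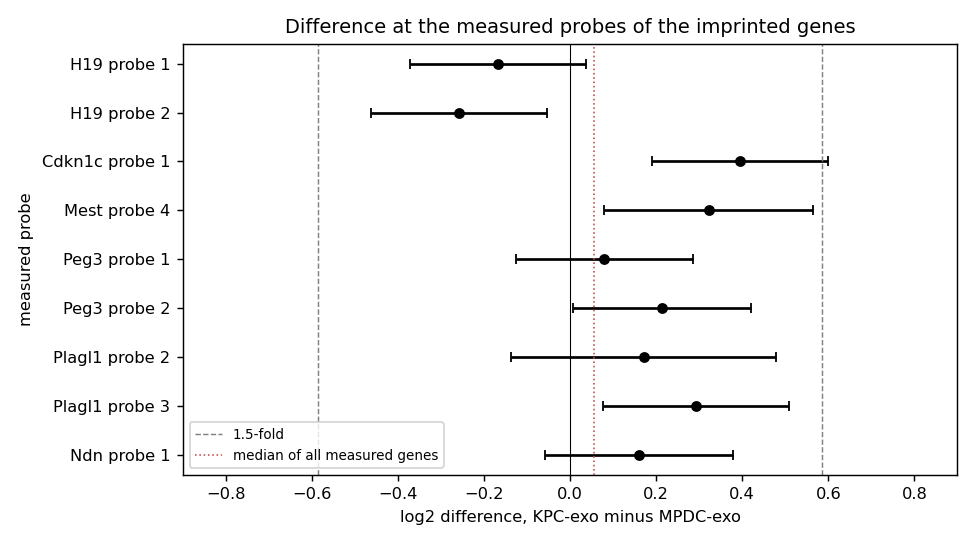
Log2 difference, KPC-exo minus MPDC-exo, at the 9 measured probes of the imprinted genes, with bars for the scanner software's spot error combined over both arrays, dashed lines at 1.5-fold and a dotted line at the median of all measured genes. Both H19 probes lie below 0, at -0.17 and -0.26, the other 7 probes lie above it, and no point passes a dashed line.

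Where a gene had more than 1 measured probe the probes had the same sign, as in H19, Peg3 and Plagl1. Of the 9 measured probes 7 lay above 0 and 2 below, with a median of 0.17 against 0.04 over all measured probes, and 10.1% of all measured probes were 1.5-fold or more apart. Different probes of 1 gene varied by a pooled SD of 0.36 on the log2 scale over 5736 genes, which is about the size of the largest member differences. The spread also depended on signal: 17.4% of genes in the dimmest of the 4 signal classes, which holds Mest, Ndn and Plagl1, were 1.5-fold or more apart, 7.96% in the next, which holds Peg3, and 1.62% in the brightest, which holds H19. Grouped by the parental allele, the 4 measured of 5 paternally expressed members lay at 0.08 to 0.32. The 2 measured of 5 maternally expressed members lay at -0.17 and 0.40. These groups were not compared by a test.

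**Figure D4:**
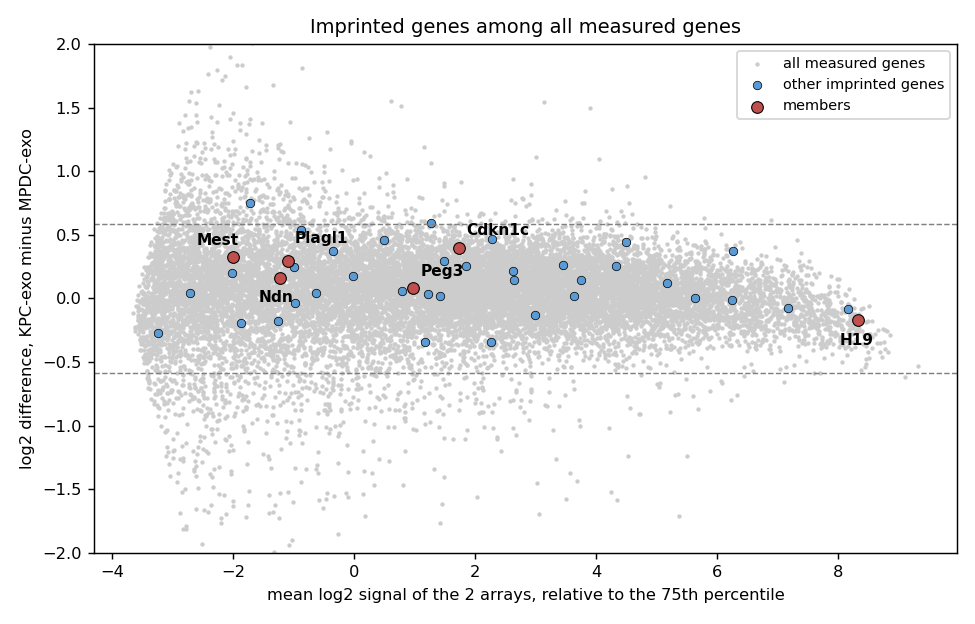
Log2 difference, KPC-exo minus MPDC-exo, against the mean log2 signal of the 2 arrays for all measured genes (grey), other imprinted genes (blue) and the 6 measured members (red), with dashed lines at 1.5-fold; 33 genes lie beyond the plotted range. The grey cloud is widest among dim genes, and the members, from H19 at -0.17 to Cdkn1c at 0.40, lie inside it.

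The wider set of 63 other imprinted genes was drawn up by locus, and whether each is imprinted in these cells was not tested. Of these, 62 had a probe, 36 were measured, 24 were not well above background and 2 were well above background on 1 array only. The 2 were Begain with KPC-exo and Kcnq1 with MPDC-exo, beside 1277 and 616 of all 37305 genes with a value. Their median difference was 0.13, with 26 of 36 above 0, against 58.8% of all measured genes. Above the median of all measured genes, 0.06, lay 19 of the 36. The range ran from -0.35 for Nap1l4, a histone chaperone, to 0.75 for Airn. With KPC-exo, 2 genes were higher by 1.5-fold or more, against 3.71% of all measured genes, and 0 were lower by as much, against 3.72%. Airn, the noncoding RNA antisense to Igf2r, read 89.3 and 252 units, 1.68-fold higher, with 0.30 at its other measured probe. Mcts2, a retrogene within H13, read 742 and 1882 units, 1.51-fold higher, at 1 probe. Which genes passed 1.5-fold depended on the scaling: Airn did so and Mcts2 did not when the arrays were centred on their median or normalized by quantiles or loess, and neither did with normexp background correction. Igf2r, the receptor that clears Igf2, lay at 0.21.

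The 4 brightest of these genes lay within 1.5-fold. Gnas, the stimulatory G protein subunit, read 111838 and 177417 units (-0.08), Cd81, a tetraspanin, read 55746 and 88984 (-0.07), H13, a signal peptide peptidase, read 29037 and 48306 (-0.01), and Dcn, the proteoglycan decorin, read 25675 and 55864 (0.37). The 6 measured probes of H13 ran from -0.49 to 0.75, the 6 of Gnas from -0.28 to 0.14 and the 2 of Cd81 from -0.07 to 0.06, so the sign of each depended on the probe.

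Neighbours in the same clusters lay on both sides of 0 on distal chromosome 7 and chromosome 6. Igf2, the growth factor that shares enhancers with H19, read 196 and 320 units (-0.04), with -0.15 at its other probe. In the adjoining stretch of distal chromosome 7, which also holds Cdkn1c, Ins2 lay at 0.37, Th at -0.19, Tspan32 at 0.30, Tssc4 at 0.26, the noncoding RNA Kcnq1ot1 at 0.04, Slc22a18 at 0.46 and Osbpl5 at 0.00. Over all 12 measured genes of the 15 listed there the median was 0.02. Ascl2 and Phlda2 were not well above background, and Kcnq1 was well above it with MPDC-exo only, with a KPC-exo level at least 1.16-fold lower. Probes of 1 gene disagreed in places: the measured probes of Osbpl5 ranged from 0.00 to -1.06, the 4 of Tspan32 from -0.30 to 0.30, so that its sign depended on the probe, and the 2 of Kcnq1ot1 from 0.04 to 0.43.

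Around Mest on chromosome 6, Copg2, which overlaps it in the genome, lay at -0.34, and the more distant Peg10, Pon3, Pon2, Sgce and Casd1 lay at -0.27, -0.13, 0.02, 0.12 and 0.54. The other measured probe of Sgce lay at 0.49. Klf14, Calcr, Tfpi2, Ppp1r9a, Asb4 and Dlx5 were not well above background. Beside Peg3, Usp29 lay at 0.20, and Zim1, Zfp264 and Zim3 were not well above background. The 5 measured of 8 listed genes of the Prader-Willi and Angelman region were all above 0, as were 58.8% of all measured genes. Ndn lay at 0.16, Peg12 at 0.25, Snrpn at 0.47, Ube3a at 0.06 and Atp10a at 0.02. Ube3a was at the median of all measured genes, 0.06, and Atp10a below it. The 3 measured probes of Snrpn spanned 0.12 to 0.47, and the other probes of Ube3a reached -0.16. Magel2 and Mkrn3 were not well above background there. Ddc, next to Grb10, lay at -0.18, and Phactr2, next to Plagl1, at 0.04.

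**Figure D5:**
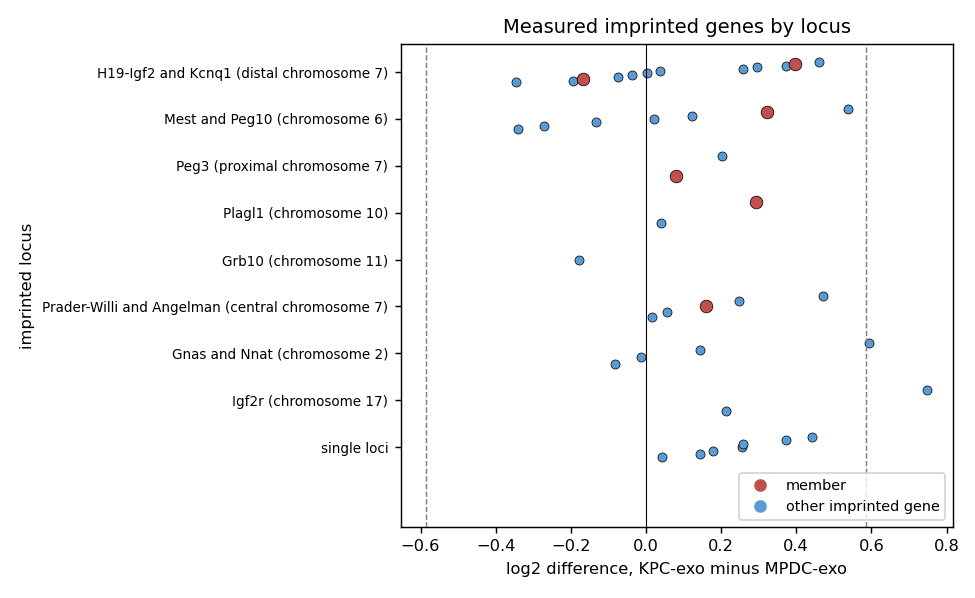
Log2 difference, KPC-exo minus MPDC-exo, of each measured imprinted gene by locus, with large red points for the members, small blue points for other imprinted genes and dashed lines at 1.5-fold; points are shifted vertically only to separate them. The Dlk1-Dio3 cluster is missing because 0 of its 7 listed genes were measured, and the 12 genes of distal chromosome 7 lie on both sides of 0.

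Within 50 kb of the members' probes lay 52 further probes, of which 11 were measured and 41 were well above background on neither array. Beside H19, both the muscle-expressed transcript Nctc1, with 77.9 and 137 units, and the mitochondrial ribosomal protein gene Mrpl23 lay at 0.06. That is the median of all measured genes and within the spot errors of 0.26 and 0.20. The sign of H19 itself depended on the scaling, so no contrast in sign can be read here. A further probe, which the files name only by a transcript ID, read 11879 and 21723 units (0.12). It overlaps the Mrpl23 probe on the same strand, so it is not an independent reading. Cep41, near Mest, lay at -0.18, and both probes of Ltv1, next to Plagl1, at 0.03. The unnamed probe at Rian was the only one of the 11 that was 1.5-fold or more apart, against 10.1% of all measured probes.

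All values are relative to the other signal of the same array. Over all measured genes, 630 passed 1.5-fold upwards and 632 downwards with KPC-exo. These counts were 497 and 742 with centring on the median, 493 and 746 with the percentile taken over detected probes, 462 and 776 with cyclic loess and 269 and 440 with normexp correction. Centring on 7 spike-in probes moved every gene up by 1.00 and gave 15861 and 57, and all 6 measured members then passed 1.5-fold. Relative to the median of all genes, the members' median stood 0.17 higher under both scalings. That had to be so, since spike-in centring moved every gene by the same amount. Over the other alternatives this excess ran from 0.03 with the stricter filter on dim probes, which kept 3 members, to 0.27 with no such filter. With normexp correction it was 0.04.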

How the data were processed

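Total RNA of 2 C2C12 cultures was amplified to Cy3-labelled cRNA and hybridised to 1-colour Agilent mouse arrays, per the labels' protocols. Scanner output came from Agilent Feature Extraction 10.7.1.1, per the submitters' processing notes, and the deposited scanner files hold linear spot intensity after background subtraction, without normalization from array to array. Per the file headers, probes are placed on mm9. The deposited series value table holds log2 values of a making that the sources used here do not state; both columns had a median of 4.88 and correlated with the scanner values at 1.00, and they served only as an alternative.

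Of 62976 features, 59305 were not controls and stood for 56605 probes. Spots with a non-uniformity or population outlier flag were dropped (102 on the MPDC-exo array, 166 on the KPC-exo array), the log2 values of a probe's spots were averaged, and the array's own 75th percentile was subtracted from every probe. Well above background were 45.9% and 47.6% of probes, and 0 spots were saturated. The brightest probe stood for its gene, and measured means that on both arrays this probe was well above background. Symbols were updated through RefSeq accessions (GRCm38.p6) for 32994 probes, which changed no member's set of probes; RefSeq coordinates served only to find microRNA genes within members, and none is printed. The number of arrays, 1 per group, limits the precision; spots of 292 repeated probes had a median SD of 0.03 for the log2 difference, and no value includes variation between cultures.

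The members, the gene lists and the tests were chosen with earlier results of these data known. Named are all members with all probes; among other imprinted genes those at least 1.5-fold apart, or with such a bound, the 4 brightest and those in a member's cluster; the measured probes within 50 kb of a member's probe; and the brightest and most different gene of each marker list. Alternatives were normexp with an offset of 50, other centrings, quantile and cyclic loess normalization, other treatment of flags, other filters on dim probes, the mean over probes, the series value table and a 2-fold threshold. Sequences are shown for a few noncoding RNA probes, and some others are not reported here. The scripts were tested on simulated data. Software was R 4.3.3, limma 3.58.1, matplotlib 3.10.9, pandas 2.3.3, numpy 2.4.6 and Python 3.11.15.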

Additional observations from a re-analysis of the deposited data

How the results depend on the processing

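No paired analysis was possible because each group has 1 array, and no array could be left out. The median difference of the measured members, 0.23, lay between 0.08 (stricter filter on dim probes, which kept 3 members) and 0.29 (spots with a flagged background left out, and likewise without H19, an alternative chosen after seeing the data), except for 1.23 with centring on the spike-in probes. The count of members at least 1.5-fold apart stayed at 0 under all alternatives except for 6 of 6 with the spike-in probes and 1 of 10, Meg3, with no filter on dim probes. The count of other imprinted genes at least 1.5-fold apart, 2, was 0 with normexp correction and at a threshold of 2-fold. It was 1 with centring on the median, the percentile over detected probes, quantile normalization, cyclic loess, the series value table (Airn in each) and the stricter filter (Mcts2). It was 36 of 36 with the spike-in probes and 9 of 62, of which 7 were higher and 2 lower, with no filter. Among all 37305 genes 15.4% were 1.5-fold or more apart with no filter, 8.21% higher and 7.15% lower. With the spike-in probes 93.7% of measured genes were. With the mean over a gene's probes the count of other imprinted genes stayed at 2, but as Mcts2 higher and Osbpl5 lower. Spike-in centring aside, Cdkn1c, Mest, Ndn and Plagl1 kept their sign under every alternative that gave a value, while H19 kept it under 9 of 11 and Peg3 under 10 of 11. Not all of these alternatives could move a value. With 1 measured probe each, Cdkn1c, Mest and Ndn could not change with other filters on dim probes or the mean over probes. Other centrings moved every gene by the same amount. A kept sign does not mean a stable size. With normexp correction Mest fell to 0.04, Ndn to 0.06 and Plagl1 to 0.12, beside a median of 0.05 over all measured genes. Cdkn1c stood at 0.40 there. The Meg3 bound lay between 2.87-fold and 5.74-fold over 8 alternatives and was 11.2-fold with the spike-in probes. The cause of these shifts was not tested. Signal over background limits Dlk1, Rian and Grb10, for which no level can be given.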
